A study of Mus musculus with 16 samples.

Results

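BC080696, AF067061, D13Ertd608e, Gm11544 and Gm20767 are 5 mouse genes whose products have little or no described function, and they stood out for high signals in mouse blastocysts cultured with SP600125. They were chosen by name because of that rise, and every probe set whose array annotation names one of them was taken. That gave 5 probe sets, 1 per gene, out of 45037 probe sets measured in all samples, which name 18193 genes on their own. The control, SB203580, SP600125 and U0126 groups hold 3 samples each. Doses were 20 µM SB203580, 25 µM SP600125 and 20 µM U0126. Controls have no treatment named. The sources used here do not say whether controls received solvent, how long treatment lasted, which mouse strain was used or how many embryos made up a sample. SB203580 inhibits p38 MAP kinases, SP600125 inhibits the JNK kinases, and U0126 inhibits MEK, the kinase upstream of ERK. In each group, RNA of replicate 1 was labelled by a small sample assay and read on a 430A and a 430B array, while that of replicates 2 and 3 was labelled by a two-cycle assay and read on 430 2.0 arrays. Levels are therefore compared within an array type only. Nothing says that replicates came from separate cultures, so p-values below measure the spread between these samples. In RNA from whole embryos, more cells with a transcript and more transcript per cell cannot be told apart.

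The mouse embryo starts broad transcription of its own genome at the 2-cell stage, when a group of genes is switched on for a short time and then silenced. Many of these genes lie in clusters of near-identical copies, and Tcstv1 and Tcstv3, whose names stand for transcripts first described at the 2-cell stage, are typical of them. By the blastocyst stage this group is normally low, and the embryo consists of trophectoderm, epiblast and primitive endoderm. In the RefSeq annotation of assembly GRCm38.p6, D13Ertd608e, Gm20767 and AF067061 lie on chromosome 13 in a stretch that also holds Tcstv1 and Tcstv3. Between AF067063 and Tcstv3 this stretch has 31 annotated genes, of which 11 are protein coding and 14 are pseudogenes. BC080696 lies on chromosome 5 and Gm11544 on chromosome 11. Gm11544, Gm20767 and AF067061 are annotated as protein coding, while BC080696 and D13Ertd608e are listed as RNAs of no further type. AF067061 was read by a probe set of the x_at kind and D13Ertd608e by one of the s_at kind, which are array designs whose probes can match more than 1 transcript. Signals of those genes can therefore include near-identical copies.

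The sequence before the start of AF067061 is shown because it is the only one of the 5 genes with an entry in the RefSeq promoter table used here (GRCm38.p6), and that of Gm21761, a gene in the same stretch of chromosome 13 that no probe set names alone, because it shows how alike copies in this stretch are. Each run holds the 250 bases before the start, 5′ to 3′ on the gene's strand; capitals mark the letters TAATCC on either strand, so also GGATTA, and the letters TATATAA. AF067061 is at chr13:120262845-120263094 on the plus strand, and Gm21761 at chr13:119913469-119913718 on the minus strand.
AF067061: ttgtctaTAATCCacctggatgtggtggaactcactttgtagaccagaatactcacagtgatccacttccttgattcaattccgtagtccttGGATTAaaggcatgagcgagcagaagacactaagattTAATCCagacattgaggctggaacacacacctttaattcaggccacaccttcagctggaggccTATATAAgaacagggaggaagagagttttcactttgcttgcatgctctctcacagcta
Gm21761: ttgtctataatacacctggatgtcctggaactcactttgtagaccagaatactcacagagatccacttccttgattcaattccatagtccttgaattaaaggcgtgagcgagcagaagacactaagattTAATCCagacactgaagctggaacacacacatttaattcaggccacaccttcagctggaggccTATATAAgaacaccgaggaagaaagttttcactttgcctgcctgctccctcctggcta
Of the 250 bases, 231 are identical between the 2 genes, a share of 92.4%. TAATCC, letters bound by homeodomain factors of the Otx type, occurs 3 times before AF067061, with first bases 243, 158 and 121 before the start, and 1 time before Gm21761, at 121. TATATAA, a form of the TATA box, occurs 1 time in each, 58 before the start. Searched on both strands, TAATCC is in 6.25% of 32851 such windows, and 8 windows (0.0244%) hold 3 or more; TATATAA is in 3.04%. TATAAA, in 12.4% of windows, and the palindromic binding motif of the Dux factor, in 0.0304%, are in neither sequence. These letters were chosen after the sequences were seen, and TATATAA and TATAAA can overlap each other. A match describes letters only.

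BC080696 read low in blastocysts without SP600125 and far higher with it. Of its 9 samples without SP600125, 4 lay below the 40th percentile of their array. Its deposited array signal in replicates 1, 2 and 3 was 214.4, 146.1 and 33.1 in controls, 208.9, 105.9 and 130.9 with U0126, 90.2, 32.7 and 24.5 with SB203580, and 3853.2, 1015.1 and 2612.2 with SP600125. Every SP600125 sample was above every other sample of its array type. On the 430 2.0 arrays the lower SP600125 signal was 6.95 times the highest of the other groups, and in replicate 1 the ratio was 18.0. SP600125 moved its place among all probe sets of an array from between the 27.5th and 64.7th percentile in the other 430 2.0 samples to the 85.8th and 92.9th. The replicates with SP600125 did not read alike, replicate 3 being 2.57 times replicate 2.

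AF067061 and Gm20767 read at array background in some samples without SP600125 and above it in others, and higher still with SP600125. AF067061 read 15.7, 148.2 and 8.5 in controls, 8.3, 180.7 and 8.3 with U0126, 13.7, 139.7 and 118.0 with SB203580, and 653.7, 1136.6 and 2431.2 with SP600125. All SP600125 samples lay above all others of their array type, by 6.29 times on the 430 2.0 arrays. No fold is given for replicate 1, where all other groups were at background. Among the 9 samples without SP600125, 5 lay below the 20th percentile of their own array, the level taken here as background, while replicate 2 of the control, SB203580 and U0126 groups and replicate 3 with SB203580 lay above it. Gm20767 read 3.9, 150.7 and 3.5 in controls, 2.8, 7.9 and 107.6 with U0126, 3.1, 82.6 and 41.0 with SB203580, and 102.7, 544.8 and 938.9 with SP600125. Of its 9 samples without SP600125, 5 were at background, but not the same ones: U0126 replicate 2 was above background for AF067061 and at it for Gm20767, and U0126 replicate 3 the reverse. Its lower SP600125 signal on 430 2.0 arrays was 3.62 times the highest other one. In replicate 1 the other groups were at background, and the SP600125 signal stood only at the 42.0th percentile of the 430A array. For both genes control replicate 2 was well above background, at the 64.9th and 65.1st percentile of its array, and control replicate 3 was at background, at the 15.8th and 6.3rd.

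D13Ertd608e was the steadiest of the 5. Its signal was 202.0, 49.7 and 71.3 in controls, 107.7, 57.6 and 116.0 with U0126, 137.9, 113.9 and 115.2 with SB203580, and 692.2, 665.8 and 683.4 with SP600125. SP600125 samples were again above all others, by 5.74 times on 430 2.0 arrays and by 3.43 times in replicate 1. Replicates 2 and 3 with SP600125 were nearly equal, with a ratio of 1.03, and no sample of the other groups was at background. Control replicates 2 and 3 stood at the 45.3rd and 51.7th percentile of their arrays. Over all 430 2.0 samples outside the SP600125 group, the range was the 43.0th to the 60.3rd.

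Gm11544 was low in controls, between control and SP600125 levels with the other inhibitors, and highest with SP600125. It read 127.2, 41.8 and 8.9 in controls, 143.8, 135.2 and 46.9 with U0126, 508.8, 70.9 and 84.2 with SB203580, and 1549.5, 270.2 and 874.9 with SP600125. SP600125 samples were above all others with the narrowest gap of the 5 genes, 2.0 times on 430 2.0 arrays and 3.05 times in replicate 1. SB203580 samples lay above the controls of their array type, as for 11.6% of the probe sets tested, and so did U0126 samples, as for 14.0%. Neither difference passed the test. Replicate 3 with SP600125 was 3.24 times replicate 2, and 1 sample without SP600125, control replicate 3, was at background.

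**Figure D1:**
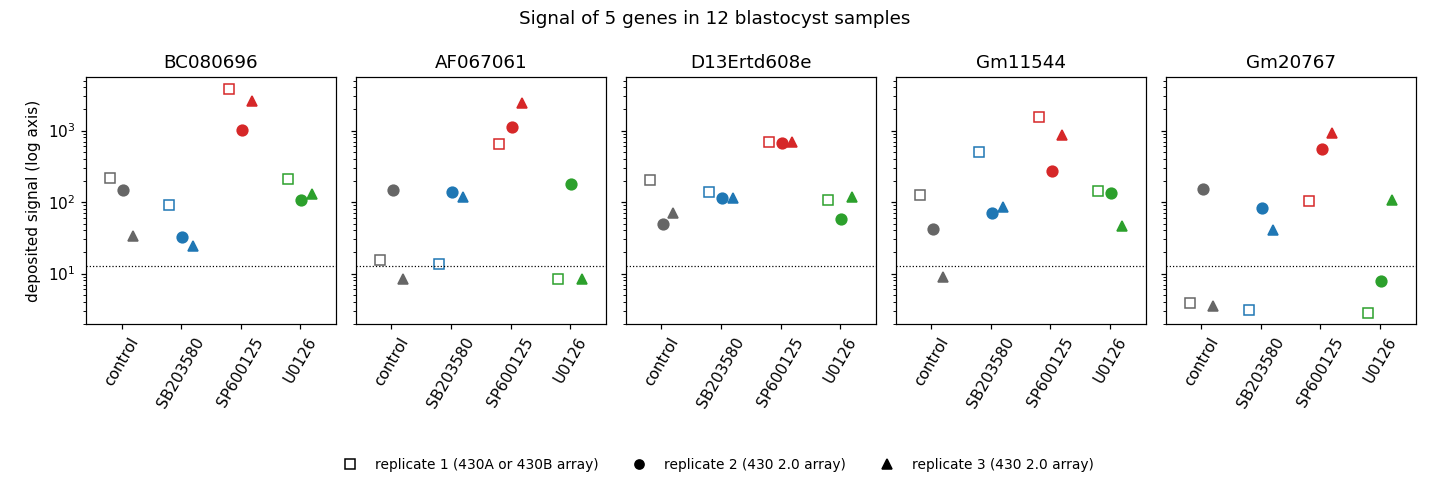
Deposited array signal (log axis, arbitrary units) of the 5 genes in each sample, by group; squares are 430A or 430B arrays, filled points 430 2.0 arrays, and the dotted line is the pseudocount of 12.6. SP600125 samples are above all other samples of the same array type for all 5 genes, from 2.0 times for Gm11544 to 6.95 times for BC080696 on 430 2.0 arrays.

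For all 5 genes the SP600125 samples thus did not overlap any other group within an array type, an arrangement found in this direction for 2.45% of the 27022 probe sets that passed the signal filter. Because the genes were picked for this rise, nothing is read from that count. Fitted over array types on the log2(signal + 12.6) scale, AF067061 was higher with SP600125 than in controls by 4.75 ± 0.73 (SE, n = 3 per group), BC080696 by 4.21 ± 0.41, Gm11544 by 3.74 ± 0.50, Gm20767 by 3.49 ± 0.75 and D13Ertd608e by 2.74 ± 0.36. Ordered by size, these rises were places 2, 4, 6, 8 and 14 among all probe sets tested. They are given as a description, since this comparison chose the genes. D13Ertd608e had the smallest rise and also the smallest error, and the 2 genes nearest background had the largest errors. Without control replicate 3 the rise was 3.87 for AF067061 and 2.52 for Gm20767, and without control replicate 2 it was 5.43 and 4.31.

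Each SP600125 replicate was set against the mean control of its array type, so replicates 2 and 3 share the mean of control replicates 2 and 3. In replicates 1, 2 and 3 the rise was 4.09, 3.59 and 4.95 for BC080696 and 4.56, 4.30 and 5.39 for AF067061. For D13Ertd608e it was 1.72, 3.23 and 3.27. For Gm11544 it was 3.48, 3.05 and 4.70, and for Gm20767 it was 2.80, 3.44 and 4.21. Replicate 3 gave the largest difference for all 5 genes, with a median of 4.70 against 3.48 in replicate 1 and 3.44 in replicate 2. Against the other inhibitors, SP600125 samples were higher by 5.29 ± 0.41 (SB203580) and 3.81 ± 0.41 (U0126) for BC080696. For Gm11544 the differences, 2.18 ± 0.50 and 2.72 ± 0.50, were smaller than that from control. These comparisons share the SP600125 samples with the one that chose the genes and carry no test.

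**Figure D2:**
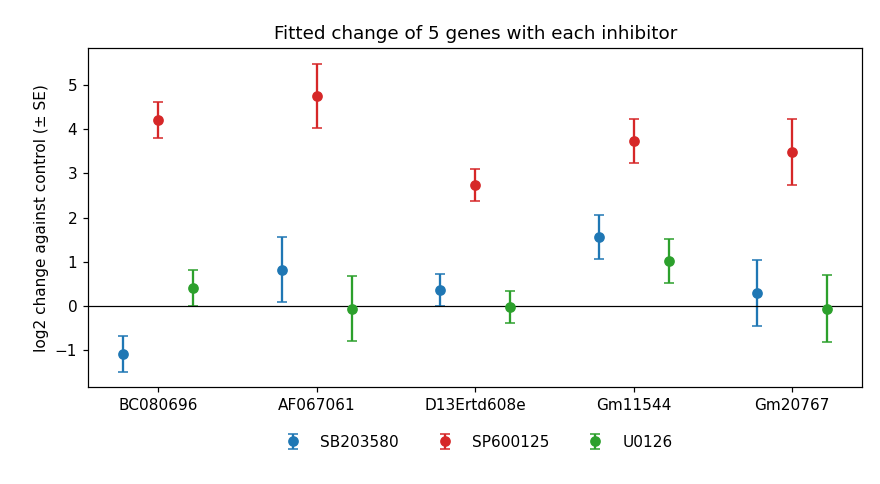
Fitted log2 difference from control of each of the 5 genes with SB203580, SP600125 and U0126; points are estimates and bars are standard errors (n = 3 per group). SP600125 differences run from 2.74 to 4.75, while those with SB203580 and U0126 run from -1.08 to 1.56.

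SB203580 did not move any of the 5 genes past the test. In limma with Benjamini-Hochberg adjustment over all probe sets, 0 of 5 were called, against 0.37% of the 27022 tested; 2 of the 5 and 2531 of all probe sets had an unadjusted p below 0.05. The control samples here are the ones used in the comparison that chose the genes. Gm11544 was 1.56 ± 0.50 higher on the log2 scale (95% interval 0.51 to 2.62, unadjusted p = 0.0063, adjusted p = 0.263), and all 3 SB203580 samples were above the controls of their array type, as for 11.6% of all probe sets tested. BC080696 differed the other way, by -1.08 ± 0.41 (interval -1.96 to -0.21, unadjusted p = 0.0178, adjusted p = 0.374), with all 3 SB203580 samples below the controls of their array type, as for 11.9% of probe sets. The gap on 430 2.0 arrays was narrow, 32.7 against 33.1. Differences for AF067061 (0.82 ± 0.73, adjusted p = 0.806) and D13Ertd608e (0.37 ± 0.36, adjusted p = 0.827) were close to their standard errors, and that for Gm20767 (0.29 ± 0.75, adjusted p = 0.949) was below its own. Intervals stayed wide for the genes near background, from -0.73 to 2.36 for AF067061 and from -1.29 to 1.88 for Gm20767, so a change of several fold with SB203580 lies within them.

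U0126 likewise called 0 of 5 genes, against 0.455% of all probe sets, and none of the 5 but 3222 of all probe sets had an unadjusted p below 0.05. D13Ertd608e differed from controls by -0.02 ± 0.36 (limma, adjusted p = 0.994), with an interval from -0.78 to 0.75. AF067061 and Gm20767 each gave -0.06 with errors of 0.73 and 0.75 and an adjusted p of 0.986. BC080696 was at 0.40 ± 0.41 (adjusted p = 0.753). Gm11544 was at 1.02 ± 0.50 (interval -0.03 to 2.08, adjusted p = 0.434), and its 3 U0126 samples lay above the controls of their array type, an arrangement shown by 14.0% of probe sets.

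The log2 difference of SB203580 against U0126 uses no sample of the comparison the genes were chosen on. Its test does share the signal filter and the spread estimated over all 12 samples. The SB203580 against U0126 comparison called 0 of 5 genes, against 1.34% of all probe sets. BC080696 was lower with SB203580 than with U0126, with a log2 difference of -1.48 ± 0.41 (interval -2.35 to -0.61, limma unadjusted p = 0.00229, adjusted p = 0.0983), and all SB203580 samples were below all U0126 samples of their array type, as for 15.0% of probe sets. Without control replicate 3, which enters this difference only through the shared spread and array term, its adjusted p was 0.039 and the call was made. For the other 4 genes SB203580 minus U0126 ran from 0.36 for Gm20767 to 0.88 for AF067061, with adjusted p from 0.654 to 0.885.

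Ordered by fitted level, SP600125 came first for all 5 genes. SB203580 came next for AF067061, D13Ertd608e, Gm11544 and Gm20767 and last for BC080696, for which U0126 came next. None of the steps among SB203580, U0126 and control passed the test, and for AF067061, D13Ertd608e and Gm20767 control and U0126 differed by less than their standard error.

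Whether the 5 genes rose and fell together could be asked only outside the SP600125 group, because all were chosen for being high in it. Over the 9 control, SB203580 and U0126 samples, centred within array type, Pearson's r for the 10 pairs ran from -0.37 to 0.61 with a median of 0.06, and 7 were above 0. In an exact two-sided permutation test within array type no pair had a p below 0.05, adjusted or not. AF067061 and Gm11544 gave the highest value, r = 0.61 (exact permutation p = 0.0787, adjusted p = 0.787) and rho = 0.42 (exact permutation p = 0.221, adjusted p = 0.959), and r was 0.39 without the 2 samples farthest from the median. BC080696 and D13Ertd608e gave the lowest, r = -0.37 (exact permutation p = 0.353, adjusted p = 0.992) and rho = -0.30 (exact permutation p = 0.447, adjusted p = 0.985), with r = -0.05 without the 2 farthest. The pairs in the same stretch of chromosome 13 lay within this range, where r was 0.16 for AF067061 with Gm20767, 0.22 for D13Ertd608e with Gm20767 and -0.19 for AF067061 with D13Ertd608e, with adjusted p of 0.992 in these exact tests. Single samples weigh heavily here: without the 2 farthest samples r went from 0.22 to 0.72 for D13Ertd608e with Gm20767, from 0.36 to 0.60 for BC080696 with Gm20767 and from 0.10 to -0.57 for Gm11544 with Gm20767, values over 7 samples that carry no test. The 5 genes thus moved together across the SP600125 contrast, which selected them, while no shared variation was detectable among the other 9 samples, many of which read AF067061 and Gm20767 at background.

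Genes most like the 5 were ranked by Pearson's r over all 12 samples between their array-centred log2 signal and the mean profile of the 5, as a description of shared shape that the SP600125 samples dominate. Only tested probe sets naming 1 gene were ranked, so those naming several copies could not appear. Where a gene had several, the probe set with the highest r was kept, and its other probe sets are not shown. Usp17la, a deubiquitinase of a rapidly duplicating family, came first with r = 0.962. Its signal was 195.4, 99.4 and 57.0 in controls and 638.8, 723.6 and 1318.5 with SP600125, a fitted rise of 2.87 ± 0.41. The order then ran Fam161a, a ciliary protein gene (0.960), 9530057J20Rik (0.943), Cul4b, a scaffold of ubiquitin ligases (0.940), Fundc1, a mitophagy receptor (0.940), Ddit4l, an inhibitor of mTOR signalling (0.939), Rnf41, a ubiquitin ligase (0.925), Zfand5 (0.923), Hnrnph1, a splicing regulator (0.919), and Osbpl6 (0.910). Many of these moved little: the SP600125 difference was 0.46 ± 0.10 for Cul4b, 0.56 ± 0.14 for Hnrnph1, 0.65 ± 0.22 for Zfand5 and 0.73 ± 0.25 for Fam161a. Only Usp17la and Ddit4l, at 1.97 ± 0.31, were above 1.5 log2 units among the 10.

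Ranked against each gene alone, the nearest pair was 1700013H16Rik (r = 0.967) and Vnn1, a pantetheinase (0.946), for BC080696. For AF067061 it was Pramel18, of the PRAME-like family (0.950), and Lpp (0.940). Pramel18 read 103.7, 57.1 and 6.5 in controls and 513.9, 366.2 and 658.1 with SP600125, a fitted difference of 3.25 ± 0.79. D13Ertd608e was followed most closely by Gnai1, a G protein subunit (0.938), and Grb10, an imprinted growth-signalling adaptor (0.932). Gm11544 had Hsbp1 (0.935) and Rnf41 (0.927), and Gm20767 had Fam161a (0.956) and Entpd5 (0.944). All of these r values are over the same 12 samples.

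**Figure D3:**
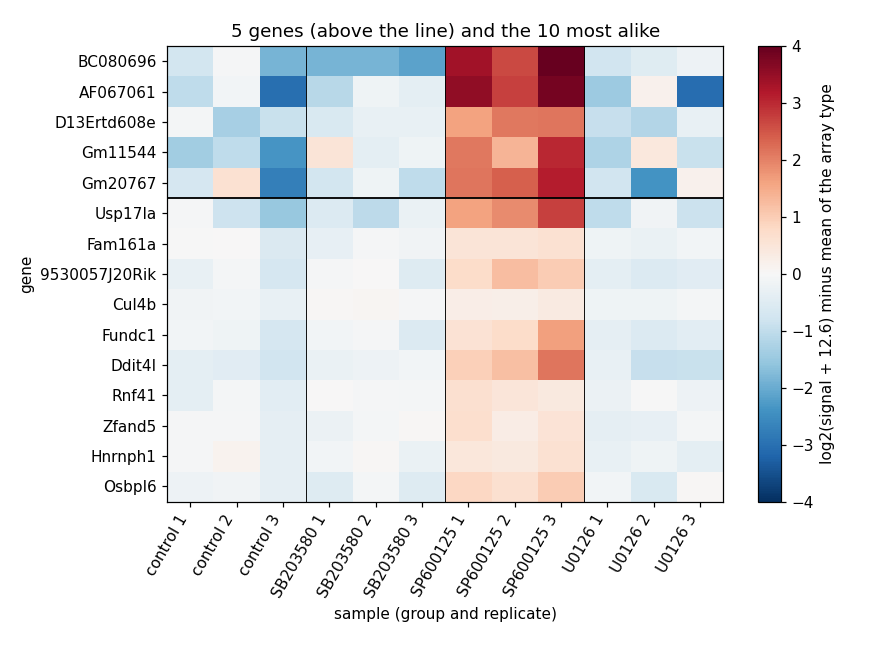
Array-centred log2 signal in each of the 12 samples, for the 5 genes and the 10 genes most like their mean profile. The 10 were ranked over probe sets naming 1 gene, and values run from -3.04 to 3.99 log2 units. SP600125 columns are high for the 5 genes and Usp17la (r = 0.962), while Cul4b and Hnrnph1 vary over a narrow range.

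The other measured genes of the chromosome 13 stretch were described next, from AF067063 to Tcstv3, the last in annotated order. Tcstv1 and Tcstv3 rose with SP600125, by 2.55 ± 0.53 (limma adjusted p = 0.0341) and 3.23 ± 0.61 (adjusted p = 0.0215). Without the SP600125 arrays the mean signal of both lay under the signal filter. Both were therefore tested only because of their rise, and their calls are not independent of it. Tcstv1 read 19.1, 50.9 and 15.6 in controls and 102.1, 242.5 and 374.7 with SP600125. Tcstv3 read 7.4, 3.2 and 14.5 in controls, at background in replicates 1 and 2 and just above it in replicate 3, and 127.3, 130.9 and 341.7 with SP600125. AF067063 differed in the same direction by 1.58 ± 0.35 without passing the test (adjusted p = 0.0548), from 86.6, 109.9 and 135.8 to 182.1, 435.5 and 541.3. BC147527 was at 1.15 ± 0.64 (adjusted p = 0.693) and stayed low in replicate 1, at 2.5 in the control and 5.0 with SP600125. It too passed the signal filter only through the SP600125 arrays. Each of these genes was read by a probe set of its own, but sequence copies in this stretch leave uncertain which copy gave the signal.

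Outside the stretch on the same side, Zfp131, a zinc finger gene, was at 0.10 ± 0.18 (limma adjusted p = 0.959), and Nim1k (0.24 ± 0.58) and Gm46390 (0.79 ± 0.43) did not pass the signal filter and were not tested. None of the measured neighbours on chromosome 13 was called with SB203580 or U0126. The calls for Tcstv1 and Tcstv3 were lost in 7 and 6 of the 12 fits that each left out 1 sample, with adjusted p up to 0.241 and 0.17, both without SP600125 replicate 3. Any of the 3 control or 3 SP600125 samples, when omitted, took both calls past the threshold, and SB203580 replicate 3 did so for Tcstv1, at 0.0501. Both calls were also lost at a pseudocount of 1 (adjusted p = 0.109 for Tcstv1 and 0.103 for Tcstv3) and on 430 2.0 arrays alone (0.0647 and 0.203), where the differences were 2.89 and 3.45.

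**Figure D4:**
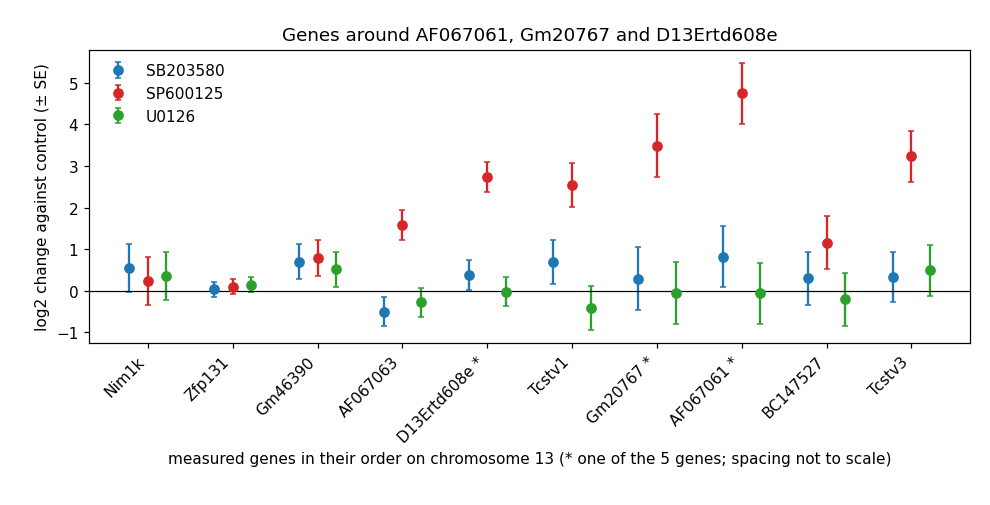
Fitted log2 difference from control with each inhibitor for the measured genes in annotated order along chromosome 13; points are estimates and bars standard errors (n = 3 per group). Genes from AF067063 to Tcstv3 are at 1.15 to 4.75 with SP600125, and Zfp131 is at 0.10.

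None of the tested neighbours of BC080696 and Gm11544 was called with SP600125. Around BC080696, SP600125 minus control was 0.71 ± 0.21 for Ccng2, a cyclin (limma adjusted p = 0.234), 0.74 ± 0.56 for Cxcl13, a chemokine (0.822), and -0.12 ± 0.19 for Cnot6l, a deadenylase (0.943); Pramel34 was under the filter. With SP600125, Ccng2 read above every other sample of the same array type, at 579.7, 2317.2 and 1935.7, as for 2.45% of the probe sets tested. Ccng2 and Cxcl13 have 2 probe sets each and Cnot6l has 4, of which 1 per gene is given. Ccng2 fell with SB203580, at -1.20 ± 0.21 (limma adjusted p = 0.017), where BC080696 was at -1.08. Its signal was 383.4, 1253.0 and 1218.0 in controls and 244.9, 446.0 and 422.3 with SB203580. The call for Ccng2 held in 7 of the 12 fits without 1 sample and was lost without any control or without SB203580 replicate 2 or 3, with adjusted p up to 0.119. Beside Gm11544, Gm11545 was at 0.48 ± 0.16 (adjusted p = 0.295) and Xylt2, a xylosyltransferase, at 0.46 ± 0.59 (adjusted p = 0.93), while Col1a1 and Sgca were under the filter.

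Among genes known from the 2-cell stage, 5 rose with SP600125 and 0 fell, of 9 tested, 11 measured and 37 listed. They were Usp17la (adjusted p = 0.00219 in limma), Ddit4l (0.00436), Tcstv3, the zinc finger gene Zfp352 (2.29 ± 0.46, adjusted p = 0.0279) and Tcstv1. The median difference over the 9 was 1.97, against 0.0 over all 12614 genes tested, and all 9 were above 0; Spz1 (1.96 ± 0.63, adjusted p = 0.288), Sp110 (1.16 ± 0.27, adjusted p = 0.0789), Ubtfl1 and Tdpoz1 did not pass. For comparison, 0.259% of all probe sets rose and 0.318% fell. The signal filter averaged all 430 2.0 arrays, those with SP600125 included. Without the SP600125 arrays the mean of Tcstv1, Tcstv3, Spz1 and Tdpoz1 lay under the cut of 42.9, so these were tested only through that group. The count called, the median and the shared direction of the 9 are therefore partly set by the filter. Probe sets naming several genes were left out of the counts for the list. The one naming Zscan4a, Zscan4c, Zscan4d and Zscan4f, among others, was at 4.43 ± 0.39 with SP600125 and was called. Also called were those naming Gm4027, BB287469 and Eif1a, at 3.74 ± 0.47, and Gm2022, Gm8300 and Gm5662, at 2.7 ± 0.54. Other such probe sets were not looked up. The list was made with earlier results of these samples known, so its direction is not independent evidence. With SB203580 and U0126, 0 of 9 were called, with medians of 0.18 and -0.33. The call for Zfp352 held in 7 of the 12 fits that left out 1 sample, being lost without any control or without SP600125 replicate 2 or 3 (adjusted p up to 0.218) and at a pseudocount of 1 (0.0819), and those for Usp17la and Ddit4l in 12 of 12. Duxf3, the homeobox gene that activates many of these genes, was under the signal filter, at 126.7, 53.1 and 35.8 in controls and 240.9, 22.5 and 83.3 with SP600125, which overlap within the 430 2.0 arrays.

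Genes that regulate this group, among them the activators Dppa2 and Dppa4 and the repressors Trim28, Setdb1 and Kdm1a, gave no call with any inhibitor in limma. All 23 measured of 26 listed were tested; the median difference was 0.01 with SP600125, 0.02 with SB203580 and 0.09 with U0126, and 1, 2 and 5 of them had an unadjusted p below 0.05, beside 2303, 2531 and 3222 of the 27022 probe sets tested. Of 21 listed Pramel and Oog genes, PRAME-like genes of oocytes and early embryos, 4 could be tested by probe sets naming 1 gene. Of these, 0 were called, with medians of 0.02, 0.12 and -0.05. A probe set naming the listed Gm13040 and Gm13057 together with Gm13043 was left out. It rose by 4.0 ± 0.44 with SP600125 and was called. Pramel18, at 3.25 ± 0.79 with SP600125 (limma adjusted p = 0.0918), is not on that list.

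Array medians were 61.1 to 83.0 on 430 2.0, 131.6 to 147.4 on 430A and 223.8 to 230.9 on 430B arrays. Actin probes at the 3′ end read 1.58 to 1.75 times those at the 5′ end on 430 2.0 arrays, a ratio that moves with RNA integrity and labelling. On the 430A arrays that ratio was highest with SP600125, at 3.66, and stood at 2.81 with SB203580, 2.47 for the control and 1.62 with U0126. The like ratio for Gapdh on the 430A arrays was highest in the control, at 4.03, against 3.46 with SP600125, 3.17 with SB203580 and 2.61 with U0126. For actin on the 430B arrays it was 3.22 with SP600125, 2.63 with SB203580, 2.19 for the control and 1.49 with U0126. Gapdh varied more than actin on the 430 2.0 arrays, from 2.84 in SB203580 replicate 3 to 4.8 in control replicate 2. Control replicate 3 stood at 3.05 there, and SP600125 replicates 2 and 3 at 3.95 and 3.37. On the 430 2.0 arrays alone the SP600125 rises ran from 3.25 for D13Ertd608e to 4.85 for AF067061. Whether RNA integrity or labelling bears on these rises was not tested. All 16 blastocyst lineage markers were tested; with SP600125, 4 fell and 0 rose, beside 0.318% of all probe sets that fell. Those were the trophectoderm factor Elf5 (-1.14) and the primitive endoderm genes Sox17 (-1.39), Pdgfra (-1.14) and Lama1 (-1.65). Other markers of these lineages were not called and went both ways. Of trophectoderm genes, Eomes (0.52), Tfap2c (0.27), Cdx2 (0.23) and Krt8 (0.04) were above 0, and Gata3 (-0.2) and Krt18 (-0.03) below. Of primitive endoderm genes, Gata6 was at 0.21 and Gata4 at -1.12. The Elf5 call was lost without control replicate 1 or 2 or SP600125 replicate 1 or 3, with adjusted p up to 0.207, and on 430 2.0 arrays alone (-0.73, adjusted p = 0.3). None of the tested oocyte (5), cumulus (4), oviduct (3) or blood cell (2) markers was called with any inhibitor in limma. Summed oocyte marker signal (10 of 14 measured) on 430 2.0 arrays was 438.4 and 600.9 in controls and 406.3 and 565.3 with SP600125, and in replicate 1 it was 1353.4 and 1571.6. Summed cumulus signal (9 of 10) on those arrays was 390.1 and 475.0 against 359.8 and 595.3, oviduct signal (7 of 7) 2138.8 and 2152.1 against 1643.0 and 1645.6, and blood cell signal (8 of 9) 176.3 and 265.7 against 141.1 and 274.4.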

How the data were processed

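The authors deposited 1 signal intensity per probe set and array, scaled by them so that the trimmed mean (2% off each end) is 500 on every array; the software and background correction are not given by the labels or tables. Arrays numbered 16 (8 of 430 2.0, 4 of 430A, 4 of 430B), and 430A and 430B of replicate 1 were joined by label into 1 sample, with 164 probe sets on both entered once. The 12 samples were fitted in limma 3.58.1 (R 4.3.3) on log2(signal + 12.6), 12.6 being the 20th percentile of 430 2.0 signals, with group and array type as terms and trend and robust moderation (7 residual degrees of freedom). Probe sets with a mean 430 2.0 signal of at least 42.9, the 40th percentile, were tested: 27022 in all, with all 5 genes among them, also when that mean left out the SP600125 arrays. Calls are at an adjusted p below 0.05. Fold changes on this scale understate changes of low genes, and the small number of arrays limits the precision. The script was tested on simulated data.

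Genes were named from the array's annotation (34945 probe sets name 1 gene, 932 several and 9160 none). Members and lists were chosen with earlier results of these data known. Besides the 5 genes, the text names the 10 genes most like their mean profile and the 2 most like each. Both rankings used probe sets naming 1 gene and kept the one with the highest r for each gene. Gene lists used the brightest probe set of each gene. Also named are the 2 nearest measured neighbours on each side and up to 4 called genes per list. Further list and stretch members, among them Duxf3 and Tcstv1 with its fellows, were named after their values were seen. So were the probe sets naming several genes. Alternatives were other pseudocounts (32 and 1), quantile normalization, no filter, 430 2.0 arrays alone, a fit without trend or robust moderation, a replicate block, and leaving out each sample.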

Additional observations from a re-analysis of the deposited data

Results flagged for a closer look

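For BC080696, SB203580 and SP600125 samples lay on opposite sides of the controls: the difference from control with SB203580 minus that with SP600125 was -5.29 on the log2 scale. All 3 SB203580 samples were below the control mean of their array type and all 3 SP600125 samples above it. The difference of -5.29 was not tested, because the gene was chosen for its rise with SP600125, and most of it is that rise, 4.21. The SB203580 part, -1.08, was not called (limma adjusted p = 0.374). On 430 2.0 arrays its gap from the controls was narrow, 32.7 against 33.1. Groups of 3 samples are too small for a test of single samples that stand apart.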

How the results depend on the processing

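The 5 genes kept a rise with SP600125 under every alternative run; the median over the 5 was 3.74, also 3.74 with a replicate block. Across settings and omitted samples the widest ranges were 3.87 to 5.43 for AF067061 and 2.52 to 4.65 for Gm20767, with 5.41 and 4.65 at a pseudocount of 1 and 4.16 and 2.78 at 32, so depth of signal over background limits these genes. SB203580 against U0126 called 0 of 5 genes, and 0 to 1 when a sample was left out, the 1 being BC080696 without control replicate 3. No other count of the 5 genes called changed. Counts over all probe sets were 100 (SB203580), 156 (SP600125) and 123 (U0126) against control and 363 for SB203580 against U0126. They were 36, 81, 61 and 205 on 430 2.0 arrays alone and 1, 8, 2 and 36 without trend and robust moderation, and down to 32, 73, 56 and 133 without 1 sample. No call of a gene named in the text with a probe set of its own remained without that moderation (Usp17la, adjusted p = 0.0896 in limma, Tcstv1 0.11 and Tcstv3 0.105). Calls of probe sets naming several genes were not followed. With the replicate block the counts over all probe sets were 115, 170, 156 and 404, and the block changed no call among the 5 genes. Same-numbered 430 2.0 samples had correlations of deviations of 0.02 to 0.09, all small and all above 0. Whether same-numbered samples shared a batch was not tested.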
